A study of Caenorhabditis elegans with 14 samples.

Results

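The genes fib-1, nsun-1, nsun-2, nsun-4 and nsun-5 of the nematode Caenorhabditis elegans encode fibrillarin and 4 further RNA methyltransferases. They were picked by name out of 41875 entries, each a gene name with its locus, in the authors' deposited table, and all 5 were found there. The table lists nsun-1 as nol-1 and nsun-2 as Y48G8AL.5, and the gene IDs tie these names to the current symbols. The rule used names and no measured value, but the genes were proposed with earlier results of these data known.

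Fibrillarin, the product of fib-1, is the catalytic subunit of the box C/D small nucleolar ribonucleoproteins, in which a guide RNA directs the methylation of ribose in ribosomal RNA (rRNA) in the nucleolus. The NSUN proteins methylate carbon 5 of cytosine. NSUN-1 and NSUN-5 act on the large-subunit rRNA, NSUN-2 acts on transfer RNA, and NSUN-4 acts on RNA of the mitochondrion. All of them take the methyl group from S-adenosylmethionine, which the methionine cycle makes. In worms the protein NCL-1 holds down fibrillarin and the size of the nucleolus. The terms attached to the genes in the authors' deposited table followed these roles, with rRNA methylation or rRNA base methylation for fib-1, nsun-1, nsun-4 and nsun-5, the mitochondrial large ribosomal subunit for nsun-4, and transfer RNA methylation with no rRNA term for nsun-2. The heading rRNA methyltransferase therefore covered 4 of the 5 genes. The RNA of the enzymes was measured here, and the methylation of rRNA was not.

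The groups were gravid worms on day 1 of adulthood, raised at 20 °C on the bacterial food OP50, either wild type (Bristol N2) or labelled pycr-1(wrm22). A reductase that completes proline synthesis is the product of pycr-1, and the nature of the wrm22 allele is not given in the labels. Total RNA was taken from the lysate of whole worms, and polysomal RNA from the part of a sucrose gradient where each mRNA carries at least 3 ribosomes, with cycloheximide added to keep ribosomes in place. Wild type had 3 libraries and the mutant-labelled strain 4 libraries of each kind of RNA, 14 in all. For each gene and group the authors' deposited table gave 1 pooled FPKM, a fragment count scaled by transcript length and to the library. How the libraries were scaled is not given in the sources used here. Single libraries, their spread and their depth could therefore not be shown. All FPKM, fold changes and adjusted p-values of genes below come from the authors' deposited table, made with Cuffdiff, unless another adjustment is named, and a gene passed the test where its adjusted p was under 0.05. Values after ± are standard errors of a log2 fold change, recovered from the authors' statistics after dividing the variance of a group by its library count. Worms were harvested per genotype and replicate, without a statement that the cultures were separate, so the p-values cover the spread between these libraries only. pycr-1 itself was higher in the mutant-labelled groups, at 20.3 against 4.91 FPKM in total and 40.8 against 12.6 FPKM in polysomal RNA by the authors' deposited table. Its level could not serve as a check of the strain labels, on which the directions below rest.

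fib-1 had by far the highest level of the 5 genes. By the authors' deposited table its FPKM was 436 in wild-type total, 713 in wild-type polysomal, 317 in mutant-labelled total and 565 in mutant-labelled polysomal RNA. Of the entries at 1 FPKM or more, 2.44% lay above it in wild-type total and 1.77% in wild-type polysomal RNA, and fib-1 made up between 64.7% and 68.0% of the summed FPKM of the 5 genes in the 4 groups. Its order of levels was wild-type polysomal, mutant-labelled polysomal, wild-type total and mutant-labelled total RNA, and each neighbouring pair in that order passed the authors' test (adjusted p = 0.0473, 0.0270 and 0.00596 in the authors' deposited table).

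nsun-1 and nsun-2 formed the middle of the range. In the authors' deposited table nsun-1 stood at 99.3, 167, 78.7 and 137 FPKM in wild-type total, wild-type polysomal, mutant-labelled total and mutant-labelled polysomal RNA. nsun-2 stood at 81.2, 124, 64.3 and 99.7 FPKM in the same groups. Both had the same order of groups as fib-1. For nsun-1 the polysomal levels of the strains did not pass the authors' test (adjusted p = 0.0931 in the authors' deposited table), while mutant-labelled polysomal RNA stood above wild-type total RNA (adjusted p = 0.00319). For nsun-2 neither of these neighbouring pairs passed the authors' test (adjusted p = 0.0757 and 0.0782 in the authors' deposited table).

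nsun-4 and nsun-5 were the least abundant. In the authors' deposited table nsun-5 stood at 18.1, 22.2, 12.3 and 18.96 FPKM in wild-type total, wild-type polysomal, mutant-labelled total and mutant-labelled polysomal RNA, again in the order seen for fib-1. Its only neighbouring pair past the authors' test was the lowest, wild-type total against mutant-labelled total RNA (adjusted p = 0.0223 in the authors' deposited table). nsun-4 stood at 29.0, 23.2, 17.5 and 17.1 FPKM and had another order, with both wild-type groups above both mutant-labelled groups and total above polysomal RNA in each strain. None of its neighbouring pairs passed the authors' test (adjusted p = 0.106, 0.0563 and 0.870 in the authors' deposited table). As the plot of levels by group shows, the genes lay in these 3 tiers.

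**Figure D1:**
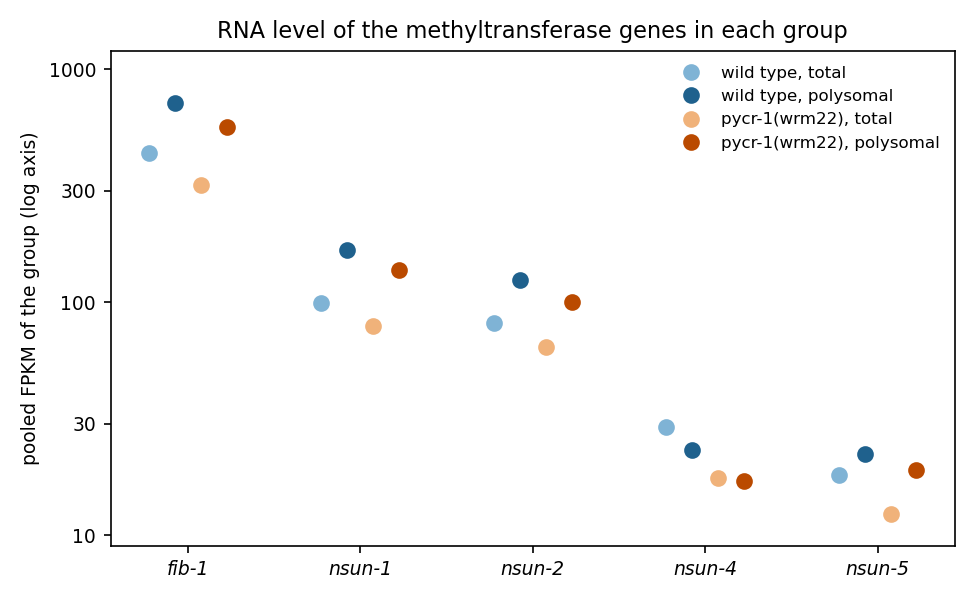
Pooled FPKM of each gene (log axis) in the 4 groups, 1 point per group; the deposited table holds no value per library, so no error bar is drawn. fib-1 lies between 317 and 713 FPKM, nsun-1 and nsun-2 between 64.3 and 167 FPKM, and nsun-4 and nsun-5 between 12.3 and 29.0 FPKM.

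The title of the series ties the mutant to ribosome assembly and the methionine cycle, and the first comparison set the strains side by side in total RNA. All 5 genes fell, by between 0.34 and 0.73 on the log2 scale, with none rising. Calls were common in this comparison, which passed 46.5% of 15557 tested genes, 18.6% as higher and 27.9% as lower in the mutant-labelled worms. Among the 8484 genes with at least 5 FPKM in both groups, 12.1% were higher and 43.8% lower. In RNA of whole worms, fewer cells of a type and less RNA per cell cannot be told apart. The change in nsun-4, the mitochondrial enzyme, was the largest of the 5. Its level in the mutant-labelled group was 60.5% of wild type, a log2 fold change of -0.73 ± 0.17 (adjusted p = 0.000207 in the authors' deposited table). nsun-5, the nucleolar enzyme of the large-subunit rRNA, followed at 68.1% of wild type, a log2 fold change of -0.56 ± 0.21 (adjusted p = 0.0223 in the authors' deposited table). fib-1 was at 72.7% of wild type, a log2 fold change of -0.46 ± 0.15 (adjusted p = 0.00596 in the authors' deposited table).

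nsun-1 and nsun-2 fell by nearly the same amount and lay at the edge of the threshold. Their levels in mutant-labelled total RNA were 79.3% and 79.2% of wild type, log2 fold changes of -0.34 ± 0.15 each (adjusted p = 0.0481 and 0.0488 in the authors' deposited table). Their deposited p-values were 0.0241 and 0.0245, beside a largest passing p of 0.0251 in the table. Both calls were lost when the authors' Cuffdiff p-values, taken from the authors' deposited table, were adjusted within this comparison alone (Benjamini-Hochberg adjusted p = 0.0519 and 0.0527). Both calls were kept when that adjustment took in only genes with at least 1 FPKM in both groups. Over the 8484 well-expressed genes the median log2 fold change was -0.35, and over all tested genes it was -0.039. Relative to the first median the values were -0.37 for nsun-4, -0.20 for nsun-5 and -0.11 for fib-1, while nsun-1 and nsun-2 changed sign to 0.015 and 0.014. nsun-1 and nsun-2 thus lay at the middle of the well-expressed genes in this comparison. fib-1 and nsun-5 lay within their standard errors (0.15 and 0.21) of that median, and nsun-4 (standard error 0.17) lay further off.

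In polysomal RNA the comparison of the strains gave smaller differences, and 2 of the 5 genes passed the test, both lower. This comparison passed 38.7% of 14696 tested genes, 14.8% as higher and 23.9% as lower, and among 8415 genes with at least 5 FPKM in both groups 10.5% were higher and 34.3% lower. nsun-4 fell to 73.9% of wild type, a log2 fold change of -0.44 ± 0.17 (adjusted p = 0.0225 in the authors' deposited table). fib-1 fell to 79.3% of wild type, a log2 fold change of -0.33 ± 0.15 (adjusted p = 0.0473 in the authors' deposited table). For fib-1 the call was lost when p-values were adjusted within this comparison (Benjamini-Hochberg adjusted p = 0.0617), and none of the 5 had an adjusted p under 0.01 in the authors' deposited table. nsun-2, nsun-1 and nsun-5 stood at log2 fold changes of -0.31 ± 0.15, -0.28 ± 0.15 and -0.23 ± 0.21 and did not pass (adjusted p = 0.0757, 0.0931 and 0.347 in the authors' deposited table). Here the median of the well-expressed genes was -0.26, and relative to it nsun-4 stood at -0.18, fib-1 at -0.079, nsun-2 at -0.058, nsun-1 at -0.025 and nsun-5 at 0.026.

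**Figure D2:**
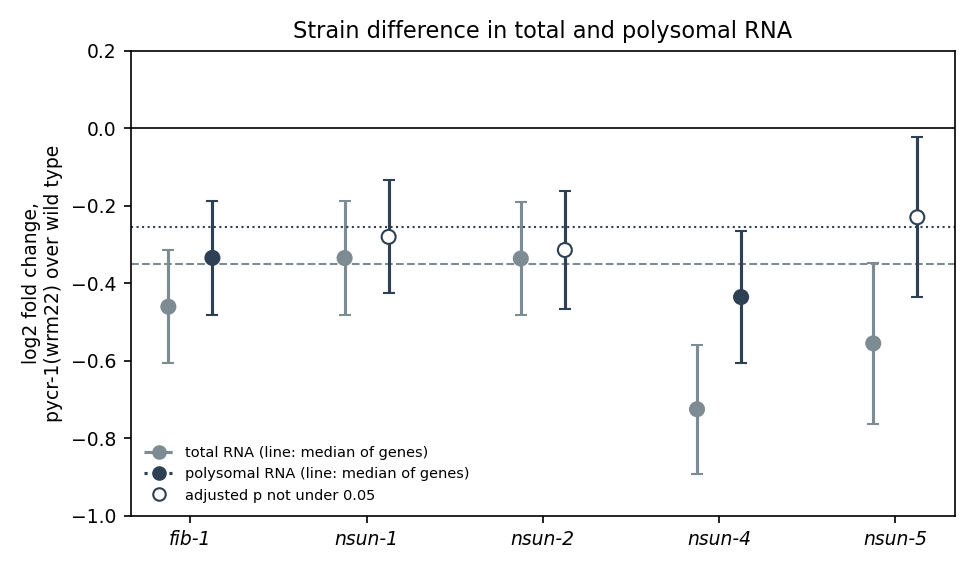
Log2 fold change of mutant-labelled over wild-type worms for each gene in total and polysomal RNA, with bars of ± 1 standard error from the authors' test statistics with divided variances; filled points passed the authors' test, open points did not, and the dashed and dotted lines mark the medians of the well-expressed genes (-0.35 in total, -0.26 in polysomal RNA). All 5 filled points in total RNA lie below 0, between -0.34 and -0.73, and in polysomal RNA fib-1 and nsun-4 are filled.

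Markers of the germline moved with the strain as well. Of 17 germline and oocyte markers, 0 rose and 16 fell in total RNA (median -0.88, or -0.53 relative to the median of the well-expressed genes), and their summed FPKM went from 4945 in wild type to 2697 in mutant-labelled worms. In polysomal RNA 0 rose and 15 fell (median -1.39, or -1.14 relative to that median), with sums of 2554 and 1302 FPKM. Beside these counts stand the 43.8% and 34.3% of well-expressed genes that were lower in total and polysomal RNA. Of all tested genes 27.9% and 23.9% were lower. The oocyte genes oma-2 and rme-2, for an RNA-binding protein and the yolk receptor, stood at -1.20 ± 0.15 and -1.15 ± 0.15 in the total RNA comparison of the authors' deposited table. Of the P granule genes on the list, glh-2, pgl-3 and pgl-1 fell in total RNA, by 0.67, 0.64 and 0.50 on the log2 scale, while glh-1 stood at -0.19 ± 0.15 and did not pass (adjusted p = 0.266 in the authors' deposited table). Of 12 markers of intestine, muscle, epidermis and neurons, 4 rose and 0 fell in total RNA (median 0.23), and 1 rose and 1 fell in polysomal RNA (median 0.072), and none was at 0 in any group. Among all tested genes 18.6% were higher in total and 14.8% in polysomal RNA. The summed FPKM of the fib-1 and nsun genes went from 664 to 490 in total and from 1049 to 838 in polysomal RNA. The part of the germline in the falls of fib-1 and the nsun genes was not tested. In polysomal against total RNA, 2 germline markers were higher and 12 lower in wild type, and 2 were higher and 13 lower in mutant-labelled worms. Among all tested genes 24.7% were higher and 26.9% lower in wild type, and 23.9% and 27% in mutant-labelled worms. Among well-expressed genes 32.8% were higher and 32.6% lower in wild type, and 32.6% and 28.5% in mutant-labelled worms. The 2 higher germline markers were glh-1 (0.81 ± 0.14 in wild type, 0.72 ± 0.15 in mutant-labelled worms) and glh-2 (0.59 ± 0.15 and 0.53 ± 0.15). Of the 12 markers of intestine, muscle, epidermis and neurons, 8 were higher and 0 lower in each strain. Their medians were 0.70 in wild type and 0.52 in mutant-labelled worms.

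Whether the strain difference itself differed between polysomal and total RNA was tested gene by gene. For each of the 5 genes the log2 fold change was less negative in polysomal than in total RNA. The difference was 0.33 for nsun-5, 0.29 for nsun-4, 0.13 for fib-1, 0.055 for nsun-1 and 0.022 for nsun-2. The median of this difference was -0.038 over 14037 tested genes and -0.023 over those with at least 5 FPKM in all 4 groups. Of the tested genes, 88.0%, 86.0%, 71.9%, 63.4% and 59.0% had a lower difference than these 5 genes, in the same order. None of these differences passed a Wald test on the authors' statistics (Benjamini-Hochberg adjusted p = 1.00 for each). With divided variances the unadjusted p was 0.223 for nsun-4, 0.268 for nsun-5 and 0.543 for fib-1, and the 95% interval of the difference ran from -0.18 to 0.76 for nsun-4, from -0.25 to 0.90 for nsun-5 from -0.28 to 0.53 for fib-1, from -0.35 to 0.46 for nsun-1 and from -0.39 to 0.44 for nsun-2. The test passed 2 genes, Y53F4B.47 and pud-2.1, which is 0.0142% of those tested, with 31 at an unadjusted p under 0.05. With divided variances it passed 21 genes, 0.15%. A passing fall of nsun-1, nsun-2 and nsun-5 in total RNA and none in polysomal RNA was therefore not shown to be a difference between the fractions.

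The next comparison set polysomal beside total RNA within each strain. An FPKM is scaled to its library, so a higher value in polysomal RNA is a relative one and not an absolute number of ribosomes. Whether it is a plain share of the mapped fragments cannot be said, since the settings of the scaling are not given. In wild type, 3 of the 5 genes were higher in polysomal RNA, and none was lower. Of 15266 tested genes 51.6% passed, 24.7% as higher and 26.9% as lower, and of 8067 genes with at least 5 FPKM in both groups 32.8% were higher and 32.6% lower. nsun-1 was 168% of its total level, a log2 fold change of 0.75 ± 0.15, and fib-1 was 163%, a log2 fold change of 0.71 ± 0.14 (adjusted p = 0.000207 for both in the authors' deposited table). nsun-2 was 153% of its total level, a log2 fold change of 0.61 ± 0.15 (adjusted p = 0.000569 in the authors' deposited table). Of all tested genes, 80.9%, 79.1% and 74.6% had a lower ratio than nsun-1, fib-1 and nsun-2. nsun-5 and nsun-4 did not pass, with log2 fold changes of 0.30 ± 0.22 and -0.32 ± 0.17 (adjusted p = 0.245 and 0.106 in the authors' deposited table).

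Within the mutant-labelled worms 4 of the 5 genes passed as higher in polysomal than in total RNA. Of 15425 tested genes 50.8% passed, 23.9% as higher and 27% as lower, and of 8512 genes with at least 5 FPKM in both groups 32.6% were higher and 28.5% lower. fib-1 reached 178% of its total level, a log2 fold change of 0.84 ± 0.15, and 90.8% of tested genes had a lower ratio. nsun-1 was at 175%, a log2 fold change of 0.80 ± 0.15, and nsun-2 at 155%, a log2 fold change of 0.63 ± 0.15 (adjusted p = 0.000207 for all 3 in the authors' deposited table). nsun-5 passed here, at 154% and a log2 fold change of 0.62 ± 0.20 (adjusted p = 0.00547 in the authors' deposited table). nsun-4 stood at 97.6% of its total level, a log2 fold change of -0.035 ± 0.16 (adjusted p = 0.870 in the authors' deposited table). For nsun-5 the test between the strains is the one given above for the fractions, since both compare the same 4 values, and it did not pass. The medians of the well-expressed genes were 0.042 in wild type and 0.11 in the mutant-labelled strain, so that centring left every sign as it was. These 2 comparisons and the 2 comparisons of the strains use the same 4 groups of libraries and are not independent of each other.

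**Figure D3:**
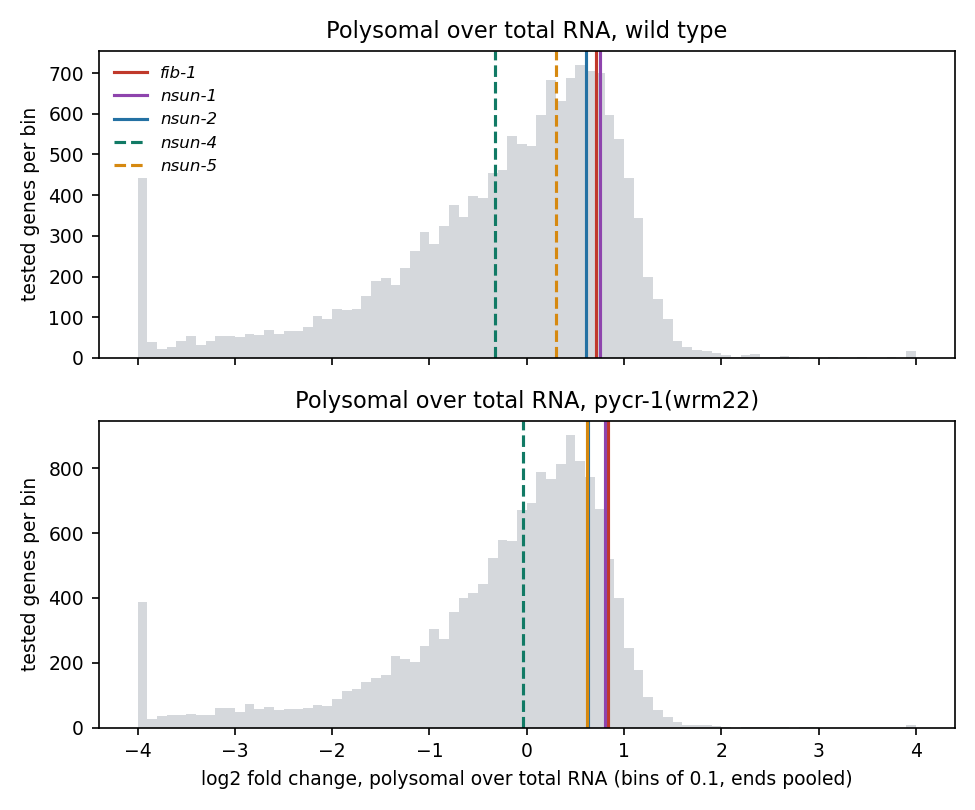
Number of tested genes per bin of 0.1 of the log2 fold change of polysomal over total RNA, in wild type (top) and in mutant-labelled worms (bottom), with values beyond -4 and 4 pooled in the end bins; coloured lines mark the 5 genes, solid where the authors' test was passed and dashed where it was not. fib-1, nsun-1 and nsun-2 lie on the right side of both distributions, at 0.61 to 0.84, and nsun-4 lies at -0.32 in wild type and -0.035 in mutant-labelled worms.

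The proteins that work with fibrillarin were set beside it. Of 6 genes for box C/D partners and assembly factors, 0 rose and 4 fell in total RNA, with a median log2 fold change of -0.42. In polysomal RNA 0 rose and 3 fell, with a median of -0.25. Beside these counts stand the 27.9% of all tested genes and 43.8% of the well-expressed genes that were lower in total RNA, and the 23.9% and 34.3% that were lower in polysomal RNA. Taken relative to the medians of the well-expressed genes, called centring below, these list medians were -0.070 and 0.0024. The ATPase genes ruvb-1 and ruvb-2, whose products help assemble these particles, fell in total RNA (-0.52 ± 0.15 and -0.45 ± 0.15) and in polysomal RNA (-0.49 ± 0.15 and -0.38 ± 0.15) by the authors' deposited table. dao-5, which encodes the nucleolar protein Nopp140, fell as well (-0.51 ± 0.16 and -0.40 ± 0.15). snu-13, listed as M28.5, encodes the box C/D core protein that binds the guide RNA and also serves the spliceosome, and it fell in total RNA (1290 to 985 FPKM, -0.39 ± 0.15, adjusted p = 0.0230 in the authors' deposited table). In polysomal RNA it stood at -0.10 ± 0.15 and did not pass (adjusted p = 0.595 in the authors' deposited table). Neither of the other core proteins passed between the strains in either kind of RNA. nol-56 stood at -0.11 ± 0.15 in total and 0.14 ± 0.15 in polysomal RNA, and nol-58, listed as nol-5, at -0.20 ± 0.15 and -0.12 ± 0.15 (adjusted p = 0.539, 0.447, 0.245 and 0.514 in the authors' deposited table). Whether they differed from fib-1 was not tested. In polysomal over total RNA nol-58 and nol-56 were higher, as fib-1 was, by 0.61 ± 0.14 and 0.41 ± 0.15 in wild type and by 0.69 ± 0.15 and 0.66 ± 0.15 in mutant-labelled worms in the authors' deposited table. snu-13 did not pass in that comparison, at -0.14 ± 0.15 in wild type and 0.15 ± 0.15 in mutant-labelled worms (adjusted p = 0.435 and 0.382 in the authors' deposited table).

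Of 8 other genes for enzymes that modify rRNA, with an activator, 0 rose and 4 fell in total RNA, with a median of -0.46 (-0.11 when centred), and 0 rose and 2 fell in polysomal RNA, with a median of -0.31 (-0.056 when centred). These shares lay near the 43.8% and 34.3% of well-expressed genes that were lower in total and polysomal RNA. emg-1, named for a yeast enzyme that methylates a pseudouridine of the small-subunit rRNA, had the largest fall in total RNA (42.0 to 26.8 FPKM, -0.65 ± 0.16). The adenine dimethyltransferase gene E02H1.1 and the methylation activator gene C04H5.1 fell in total RNA (-0.54 ± 0.16 and -0.51 ± 0.18) and in polysomal RNA (-0.44 ± 0.17 and -0.45 ± 0.18) in the authors' deposited table. C27F2.4, annotated with guanine methylation of rRNA, fell in total RNA (-0.42 ± 0.16). metl-5 was measured with a much larger error (-0.58 ± 0.63 in total RNA) and did not pass. The box H/ACA proteins, which carry out guided pseudouridylation of rRNA, counted 0 rises and 2 falls among 4 in total RNA and 0 rises and 2 falls in polysomal RNA, with medians of -0.39 (-0.043 when centred) and -0.32 (-0.059 when centred). The pseudouridine synthase gene dkc-1 fell in both (-0.49 ± 0.15 and -0.37 ± 0.15 in the authors' deposited table). nola-3 shares its entry with C25A1.16 and rrp-8 shares its entry with nog-1, so their values cannot be assigned to 1 gene.

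The genes that act before rRNA methylation showed the same sign in total RNA. Of ncl-1 and 6 genes of RNA polymerase I transcription, 0 rose and 5 fell in total RNA, with a median of -0.51 (-0.16 when centred), and 0 rose and 0 fell in polysomal RNA, with a median of -0.21 (0.041 when centred), beside 43.8% and 34.3% of well-expressed genes lower in the same comparisons. For none of these 7 genes did the difference between the fractions pass the Wald test on the authors' statistics (Benjamini-Hochberg adjusted p = 1.00 for each). With divided variances none passed after adjustment either. The 95% interval with divided variances, not adjusted for the number of genes, lay above 0 for rpoa-12 and rpoa-2. It ran from 0.30 to 1.33 around a difference of 0.81 for rpoa-12, and from 0.077 to 0.89 around 0.48 for rpoa-2. The intervals of the rest of these genes included 0. ncl-1, the repressor of fibrillarin, fell in total RNA along with fib-1 (103 to 77.2 FPKM, -0.41 ± 0.15, adjusted p = 0.0184 in the authors' deposited table). Its polysomal value was -0.25 ± 0.15 and did not pass (adjusted p = 0.161 in the authors' deposited table). Among polymerase subunits, the genes rpoa-12, rpac-19, rpac-40 and rpoa-2 fell in total RNA by 0.80, 0.71, 0.55 and 0.51 on the log2 scale in the authors' deposited table. Neither the 5 genes nor these 4 lists held a gene that passed upwards between the strains in either kind of RNA. Such calls were the fewer ones among well-expressed genes, at 12.1% in total and 10.5% in polysomal RNA. The part of the germline, whose markers moved with the strain as given above, was not tested for these lists either.

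Calls in polysomal over total RNA were counted next for the same lists, with no test between lists. In wild type the box C/D partners counted 4 genes higher and 0 lower in polysomal RNA (median 0.35), the other rRNA-modifying enzymes 2 and 0 of 8 (median 0.25), the box H/ACA proteins 3 and 0 of 4 (median 0.63), and ncl-1 with the polymerase I genes 0 and 3 of 7 (median -0.23), against 24.7% of all tested genes higher and 26.9% lower. C04H5.1 (26.4 to 51.3 FPKM, 0.96 ± 0.19), Y66H1A.4 (51.0 to 96.4 FPKM, 0.92 ± 0.16), H06I04.3 (0.75 ± 0.15) and Y48A6B.3 (0.73 ± 0.15) were the highest of these in the authors' deposited table, and rpoa-12 (60.1 to 30.7 FPKM, -0.97 ± 0.20) the lowest, followed by the initiation factor gene C36E8.1 (-0.52 ± 0.15). In mutant-labelled worms the counts were 5 and 0 of 6, 3 and 0 of 8, 3 and 1 of 4, and 2 and 1 of 7, with medians of 0.42, 0.33, 0.77 and 0.13, against 23.9% of all tested genes higher and 27% lower. Of the well-expressed genes, 32.8% were higher and 32.6% lower in wild type, and 32.6% and 28.5% in mutant-labelled worms. The box H/ACA entry counted as lower was the one that nola-3 shares with C25A1.16 (-0.40 ± 0.14).

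**Figure D4:**
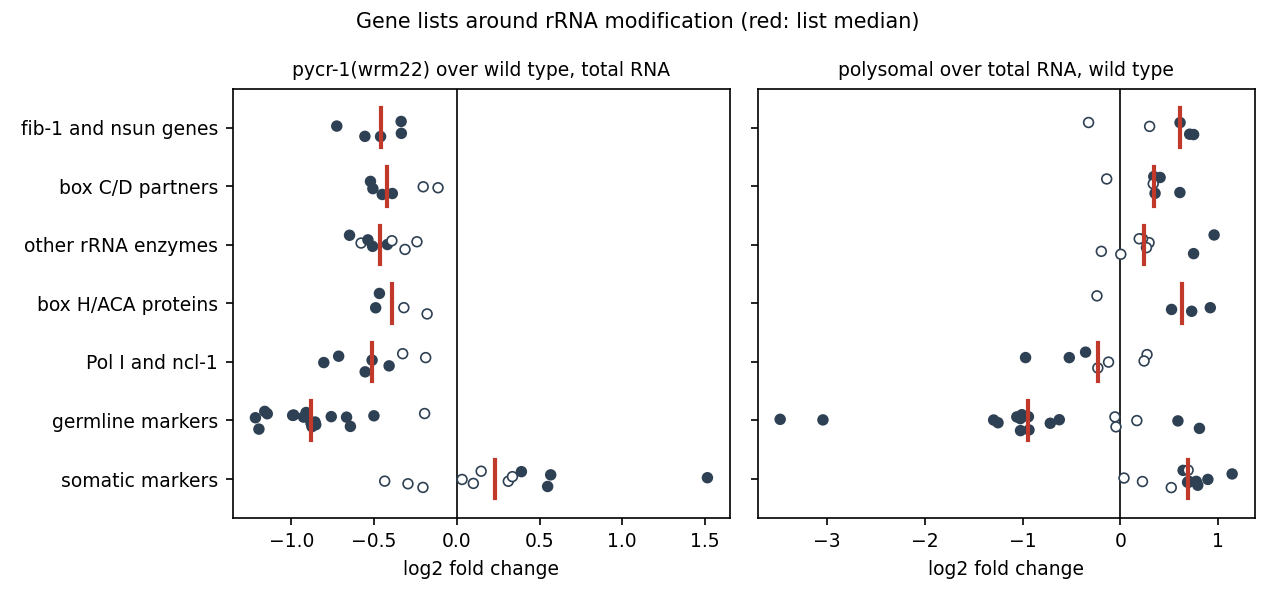
Log2 fold change of each gene of 7 lists, for mutant-labelled over wild-type total RNA (left) and for polysomal over total RNA in wild type (right); filled points passed the authors' test, open points did not, and red bars mark list medians. The fib-1 and nsun genes lie between -0.73 and -0.34 on the left, above most germline markers (median -0.88). Their median on the right is 0.61, against -0.94 for germline markers and 0.70 for markers of intestine, muscle, epidermis and neurons (somatic markers). The germline markers differ among themselves on the right, where glh-1 and glh-2 lie at 0.81 and 0.59 and pos-1 at -3.48.

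Among themselves, fib-1, nsun-1 and nsun-2 had nearly the same profile over the 4 groups. On the log2 scale, with each gene centred on its own mean, the distance between profiles was 0.097 for fib-1 and nsun-1, 0.157 for nsun-1 and nsun-2 and 0.175 for fib-1 and nsun-2. nsun-5 lay at 0.230 to 0.353 from these 3, and nsun-4 at 0.669 to 1.00 from the other 4. As a scale, the median distance of 7581 single-name entries at 5 FPKM or more in all groups was 0.977 from fib-1 and 0.899 from nsun-4. The entry nearest to fib-1 was Y48A6B.3 (distance 0.057), a box H/ACA protein gene from the lists above, followed by Y116A8C.27 (0.061) and mrps-21 (0.066). Nearest to nsun-1 were Y54E10A.10 (0.028), annotated with assembly of the large ribosomal subunit, col-103 (0.048) and Y75B8A.31 (0.051). Nearest to nsun-2 were eif-3.G (0.021), hsp-4 (0.023) and mrps-17 (0.026). Nearest to nsun-4 were M01E5.2 (0.025), K07A1.1 (0.049) and popl-5 (0.052), and nearest to nsun-5 were mrpl-20 (0.026), the polymerase I and III subunit gene rpac-40 (0.051) and fitm-2 (0.060). With 4 pooled values per gene, such distances describe the groups and carry no test.

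The genomic places of the genes bear on how cleanly they were measured. Coordinates are those of the deposited intervals on build WBcel235, with 1 added to each start, and each entry carried 1 gene name. fib-1 lies on chromosome V, 15000653 to 15002273, minus strand, with 1375 exonic bases in the Ensembl annotation of that build, and no other annotated gene overlaps its interval. nsun-2 on chromosome I (1193158 to 1211434, plus strand, 2466 exonic bases) and nsun-4 on chromosome I (2308976 to 2312129, plus strand, 1483 exonic bases) were likewise free of overlap. nsun-5 on chromosome II (14969617 to 14977005, plus strand, 1462 exonic bases) holds the gene metl-2 on the same strand within its interval, with 0 shared exonic bases. The FPKM of metl-2 was 13.5, 17.0, 9.11 and 11.6 in wild-type total, wild-type polysomal, mutant-labelled total and mutant-labelled polysomal RNA in the authors' deposited table, and its strain difference did not pass in total RNA (-0.56, adjusted p = 0.0631).

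nsun-1 on chromosome II (471247 to 475940, minus strand, 2208 exonic bases) shares 1299 exonic bases, 58.8% of its exons, with W07E6.5 on the opposite strand. The sources used here do not give whether counting used strand, so fragments of the 2 genes may not be told apart. W07E6.5 was listed at 6.01 and 0.542 FPKM in wild-type total and polysomal RNA and at 4.52 and 0.459 FPKM in mutant-labelled worms in the authors' deposited table, far below nsun-1. Its log2 fold change between the strains was -0.41 in total RNA (adjusted p = 0.0995) and its polysomal level was lower than its total level in wild type (-3.47, adjusted p = 0.000207 in the authors' deposited table), while nsun-1 was higher there.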

How the data were processed

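Total and polysomal RNA of 2 strains was sequenced in 14 libraries. The submitters' processing notes name build WBcel235 and the tools StringTie 1.3.4d, Cuffdiff 2.2.1, FastQC 0.11.7 and HISAT2 2.1.0, and settings are not given in the sources used here. The authors deposited, for each pair of groups, 2 pooled FPKM values, their log2 fold change, a test statistic (a score), a p-value and a q-value. The planned test for tables without values per library was used, which is the authors' q-value under 0.05. Rows with the same gene name and locus were counted as 1 entry.

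Standard errors were computed as the log2 fold change over the statistic, split into group variances by least squares over the 6 pairs. They were divided by the number of libraries because, for 2111 genes with deposited p-values from 0.001 to 0.01 in total RNA, the deposited median of 0.00315 lay nearer to that of the divided variances, 0.00203, than to that of the undivided statistics, 0.0996. This division was chosen with the values known. The Wald test of the difference between fractions used undivided variances and was adjusted by Benjamini-Hochberg. It treated total and polysomal libraries as independent, although the labels give them shared replicate numbers. On simulated data it missed most of the changes that had been set. The simulated noise came from the divided variances with independent groups, so the undivided variances of the test were larger than that noise by design. The simulation therefore does not show how the test behaves on these data, and a difference that the test did not pass may still be present. Centred values have the median of the well-expressed genes (at least 5 FPKM in both groups) taken off.

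The 5 genes and the 6 other lists were chosen with earlier results of these data known, and all 59 list genes were found. Wrong alternative names of Y66H1A.4 and nola-3 were corrected after values had been seen. Named genes were the 5 genes in every comparison, up to 4 passing genes per list with the largest change, pycr-1, and the 3 nearest profiles per gene. ncl-1, metl-5, rrp-8, glh-1, glh-2, pgl-1, pgl-3, metl-2, W07E6.5, Y53F4B.47 and pud-2.1, and the values without a call of nol-56, nol-58 and snu-13, were named after their values were seen. The intervals of rpoa-12 and rpoa-2 were likewise picked out after they were seen. Python 3.11.15, numpy 2.4.6, pandas 2.3.3, scipy 1.17.1 and matplotlib 3.10.9 were used. The depth of the libraries is unknown, and no interval that needs it was computed.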

Additional observations from a re-analysis of the deposited data

How the results depend on the processing

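Because the deposited table holds 1 pooled value per group, leaving out single replicates was not run, and precision is limited by the 3 or 4 libraries per group and by a depth that is unknown. No paired analysis was possible because the columns carry no replicate number. In total RNA the number of the 5 genes that passed between the strains went from 5 to 3 with p-values adjusted within the comparison. It was also 3 when that adjustment kept only entries with 1 gene name, and 2 at an adjusted p under 0.01. The number stayed at 5 when that adjustment kept only genes with at least 1 FPKM in both groups. In polysomal RNA it went from 2 to 1 when adjusted within the comparison, with or without keeping only genes with at least 1 FPKM in both groups or entries with 1 gene name, and to 0 at an adjusted p under 0.01, where the count over all genes was 3695 against 5691. With the adjustment over all 6 pairs kept, neither filter alone changed these counts, which were 5 and 2. For polysomal over total RNA the counts of the 5 genes stayed at 3 in wild type and at 4 in mutant-labelled worms under all these settings. The Wald test of the difference between fractions passed 2 genes as planned, 21 with divided variances and 1 at 1 FPKM or more in all groups. Centring turned nsun-1 and nsun-2 in total RNA to 0.015 and 0.014, and the value without a call of nsun-5 in polysomal RNA to 0.026. A pseudocount of 1 moved no log2 fold change of the 5 genes by more than 0.039, and 1 of 0.1 by no more than 0.0041. The settings with an adjusted p under 0.01, with 1 gene name and with filters adjusted over all 6 pairs were chosen after seeing the data.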
